A study of Mus musculus with 41 samples.

Results

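Hardy fraction B, the pro-B cell stage, was compared directly with the common lymphoid progenitor (CLP), leaving out fraction A, which lies between them in the Hardy scheme of B cell development. The comparison was made of the arrays titled for fraction B (7 arrays) and for the CLP (7 arrays), 14 of the 41 arrays of the series. Every array held RNA of flow-sorted cells from untreated C57BL/6 mice that were wild type for Pax5. The labels give no age, tissue of origin or sorting gate, and they do not say whether replicates were separate animals or pools, so the p-values rest on the spread among these arrays, part or all of which may be technical.

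As background, the CLP keeps the ability to form several lymphoid cell types, and cytokine receptors such as Flt3 and the interleukin 7 receptor mark it. Commitment to the B lineage depends on the transcription factors E2A (Tcf3), Ebf1 and Pax5, which switch on the parts of the pre-B cell receptor and switch off genes of other lineages. Pro-B cells rearrange the immunoglobulin heavy chain locus with the Rag1 and Rag2 recombinase, while terminal transferase (Dntt) adds bases at the joints. Among B cell precursors, those of the pro-B stage divide in response to interleukin 7.

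The values are MAS5 signals, which are single-colour array intensities that the authors scaled to the same trimmed mean on every array. Differences are given as B minus CLP on the log2(signal + 32) scale, on which changes of dim genes come out too small, with the standard error (SE) and the Benjamini-Hochberg adjusted p of limma over all 9932 genes tested. A gene was called at an adjusted p under 0.05, and "rose" or "fell" below means called higher or lower in B. Each gene is given by its probe set of highest mean, and a signal is not compared between genes. For several genes named below other probe sets differed less or were not called, and only some of these are given. The number of arrays, 7 per group, limits the precision of every value.

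The array groups differed in more than their labels. The median signal over all probe sets was 110.0 to 130.4 on the CLP arrays and 69.7 to 92.7 on the B arrays, so the groups did not overlap. The ratio of the 3′ to the 5′ Gapdh control probe sets, a common measure of RNA quality, was 4.17 ± 0.518 (SD, n = 7) on the CLP arrays and 7.53 ± 2.34 (SD, n = 7) on the B arrays. The same ratio of the actin control probe sets went the other way. It was 1.2 to 1.35 on the CLP arrays and 0.98 to 1.18 on the B arrays, so the controls disagree on which group had poorer RNA. B arrays 1 and 4 stood apart from the other B arrays on the first principal component, at 122 and 110 against 26.7 to 51.0, and a gene's SD was higher in B (median 0.481) than in the CLP (median 0.259). The part of the Gapdh ratio in any result was not tested beyond a fit that holds it as a covariate, and genes whose call was lost there are named.

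The sorted identities were checked against marker genes first. Genes of the B lineage were present on both sides: Ebf1 was measured at 2464 to 4860.3 (median 3691) on the CLP arrays, and the surrogate light chain gene Vpreb1 at 12031 to 14193 (median 12645). The progenitor markers Flt3, at 1904 to 2941 (median 2099.9), and Il7r, the interleukin 7 receptor, at 6715 to 10658 (median 8238), were also well above the array medians there. Transcripts of both kinds were thus present on the arrays labelled CLP. In a bulk sample, fewer cells of a type and less RNA per cell cannot be told apart.

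Markers of cell types outside the path were higher on the CLP arrays. Of all genes tested, 23.5% were called lower in B. Of the tested markers, 12 of 13 for neutrophils and their precursors fell in B, as did 9 of 11 for monocytes, macrophages and dendritic cells, 6 of 7 for T cells, 6 of 8 for plasmacytoid dendritic cells, 3 of 5 for NK cells and 3 of 3 for megakaryocytes. None of the tested members of these 6 lists rose. A marker absent from B was tested only where all 7 CLP arrays reached the array median. The counts thus favour markers present in the CLP. Below the filter were 10 of 15 NK markers on the array, 6 of 13 for T cells and 5 of 13 for plasmacytoid dendritic cells. So were 6 of 9 for megakaryocytes, 6 of 17 for monocytes, macrophages and dendritic cells and 2 of 15 for neutrophils. The sums below include these members. The summed signal of the T cell list was 2533 to 9869 on the CLP arrays and 547 to 1363 on the B arrays, and that of the neutrophil list 17109 to 60251 against 3050 to 22321. For the plasmacytoid dendritic cell list it was 8850 to 13866 against 3925 to 7004, and for monocytes, macrophages and dendritic cells 9611 to 15157 against 1864 to 5112. These 4 lists differed without overlap except for that of the neutrophils. The NK list summed to 2638 to 3950 in the CLP and 1313 to 2382 in B, and the megakaryocyte list to 1529 to 5775 against 354 to 1969.

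Leaving out fraction A did not remove NK and dendritic cell transcripts from the comparison. Siglech, a surface lectin of plasmacytoid dendritic cells, was measured at 554 to 1585 (median 969) in the CLP and 27.5 to 132 (median 121) in B, a difference of -3.11 ± 0.28, limma adjusted p = 4.53e-07. Nkg7, a granule protein of NK and cytotoxic T cells, fell (-2.34 ± 0.32) and Klrd1 (CD94) (-2.02 ± 0.27) on the same scale, with no overlap of arrays. The defining NK receptor genes Ncr1, at 12.6 to 74.8 (median 29.3) in the CLP, and Klrk1, at 56.7 to 193 (median 75), were not tested because they rarely reached the array median. Medians of Nkg7 were 579 in the CLP, 3597 in fraction A and 119 in B, and those of Siglech were 969, 4576 and 121.

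Among T cell genes, the CD3 chains Cd3e and Cd3g fell (-2.79 ± 0.40 and -2.73 ± 0.37), and the costimulatory receptor Cd28 (-3.16 ± 0.28). The T cell transcription factor Bcl11b was measured at 514 to 2891 (median 553) in the CLP and 4.8 to 192 (median 31.2) in B, a difference of -3.64 ± 0.41, limma adjusted p = 5.32e-06. The coreceptor Cd4, at 16.9 to 98.2 (median 55.3) in the CLP, and Cd8b1, at 16.4 to 129 (median 28.2), were below the filter. The list of neutrophil granule and antimicrobial genes had a median of -2.85, and that of T cells -2.73. Their order turned with the Gapdh ratio as a covariate (-1.98 and -2.73) and without B arrays 1 and 4 (-2.67 and -2.74). S100a8, a subunit of the antimicrobial complex calprotectin, was at 2358 to 12047 (median 6952) in the CLP and 343 to 2736 (median 517) in B (-3.22 ± 0.42, limma adjusted p = 1.81e-05), and its groups overlapped through the highest B array. Camp, the cathelicidin peptide, fell (-3.11 ± 0.44), and Lyz2, the lysozyme of myeloid cells (-2.38 ± 0.36).

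The CLP arrays also varied among themselves in such markers. Igha, the constant region of IgA heavy chains that plasma cells secrete, ranged from 607 to 26412 (median 14733) in the CLP, against 313 to 1139 (median 671) in B. Jchain, the joining chain of secreted IgA and IgM, ranged from 1053 to 18936 (median 6636) against 50.2 to 1478 (median 389). The plasma cell surface protein Sdc1 (syndecan-1) was steadier, at 2543 to 3945 (median 3167) in the CLP and 499.6 to 941 (median 834) in B (-1.99 ± 0.15, limma adjusted p = 8.84e-08), and the secretory transcription factor Xbp1 fell (-2.02 ± 0.36). In all 4 of 8 tested plasma cell markers fell and 2 rose, the risers being Irf4 and Mzb1, both also used by B cell precursors. The collagen gene Col1a1 and the chemokine gene Cxcl12, made by stromal cells, reached 4299 and 2852 on their highest CLP arrays, against medians of 152.0 and 235.8. Calls of Igha, Jchain and Mzb1 were lost with the Gapdh ratio as a covariate, as were both calls in the basophil and mast cell list (2 of 5 tested fell). The part of these cells in the differences described below was not tested.

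**Figure D1:**
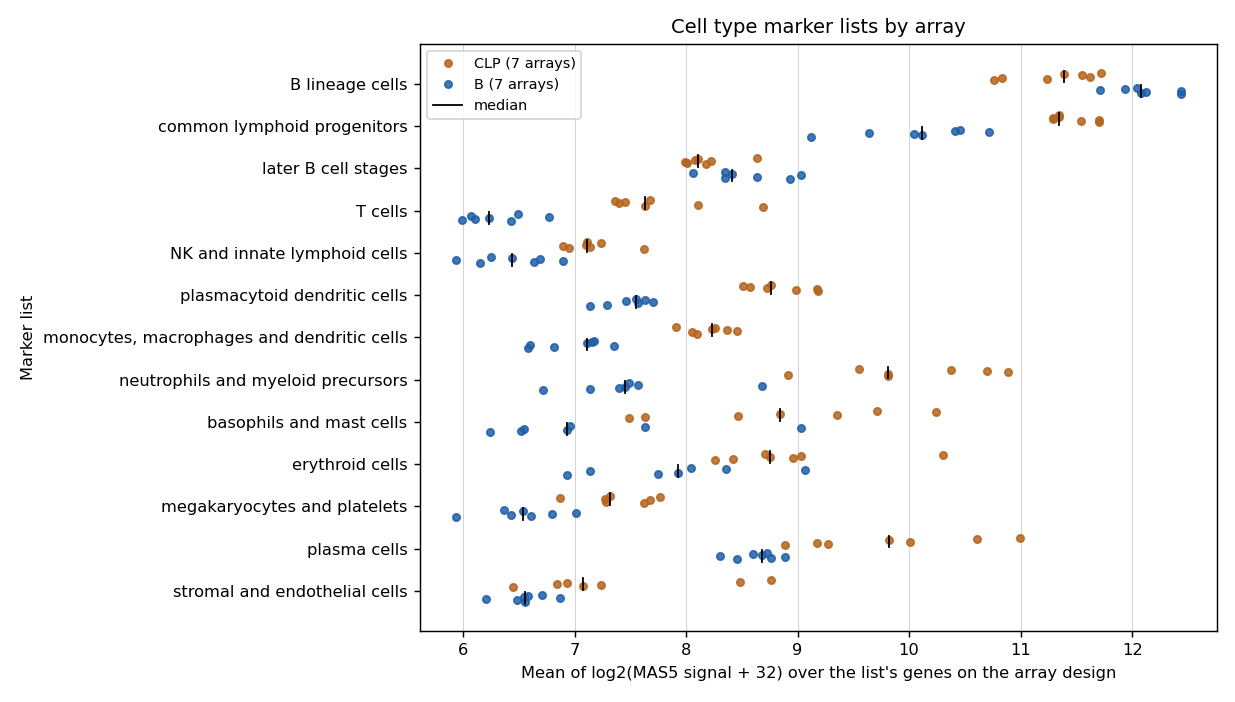
Mean log2(MAS5 signal + 32) of 13 cell type marker lists on each of the 7 CLP and 7 B arrays, where a point is an array and a bar the group's median. The B lineage list has a median of 11.39 on the CLP arrays and 12.08 on the B arrays, while the T cell list has 7.63 and 6.23 and the plasma cell list ranges from 8.89 to 10.99 over the CLP arrays.

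Of the 9932 genes tested, 3678 (37.0%) were called, 1342 (13.5%) higher and 2336 (23.5%) lower in B. At least 2-fold differences were called for 197 genes in the direction of B and 1087 in that of the CLP. All 7 B arrays lay above all 7 CLP arrays for 602 genes (6.06%) and below them for 896 (9.02%). The split depended on the scaling: with the authors' scaling 36.5% of the called genes were higher in B, against 41.3% with quantile normalization and 76.7% after each array was centred on its median, which moved the median difference of all genes from -0.18 to 0.25. With the Gapdh ratio as a covariate 1835 genes were called, and without B arrays 1 and 4 the number was 4039.

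Gene lists are described below by their counts and median, beside these shares of all genes. The list medians ran from 0.75, for the immediate early genes and for the targets activated by Ebf1 or Pax5, to -2.85 for neutrophil markers.

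**Figure D2:**
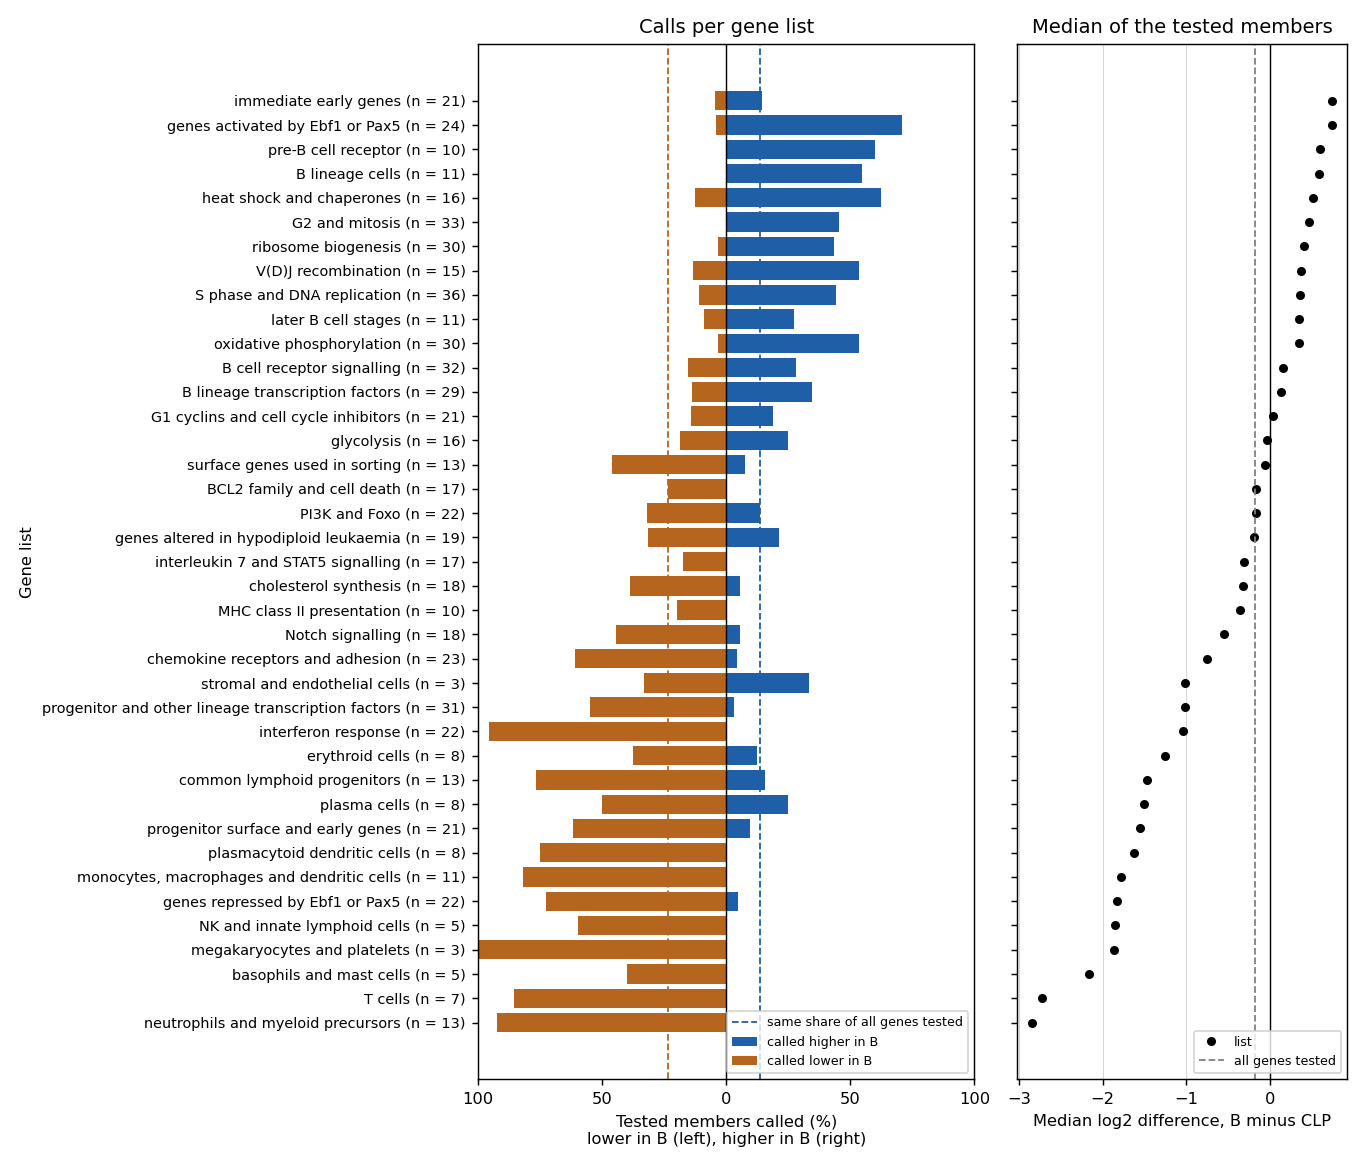
Share of the tested members of 39 gene lists called higher (right) or lower (left) in B than in the CLP, in percent, and the median log2 difference of each list. Dashed lines mark all genes tested, with 13.5% called higher, 23.5% called lower and a median of -0.18.

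Among the 12 largest rises without overlap of arrays were genes known from later B cells. Ms4a1 (CD20), a membrane protein of B cells, was at 19.8 to 294 (median 68.7) on the CLP arrays and 622 to 2468 (median 1108) on the B arrays, a difference of 3.49 ± 0.43, limma adjusted p = 1.01e-05. Every B array exceeded every CLP array. Fcrla, an Fc receptor-like protein of B cells, was at 60.4 to 453 (median 145) and 806 to 4094 (median 1184), a difference of 3.03 ± 0.40, limma adjusted p = 2.08e-05. Fcmr, the receptor for IgM, rose by 2.34 ± 0.38, and Irf4, a transcription factor needed for light chain rearrangement, by 2.25 ± 0.26. Medians of Ms4a1 in the later fractions were 1281 (fraction C), 2865 (D), 21230 (E) and 21350 (F), so the B arrays lay near those of C and far below E and F.

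Other genes of this group are better known from other tissues. Igf2bp3, an RNA-binding protein of fetal tissues and of fetal-type lymphopoiesis, was at 351 to 537 (median 422) in the CLP and 1065 to 2817 (median 2155) in B (2.12 ± 0.19, limma adjusted p = 5.35e-07), and its other tested probe sets were called in the same direction. Myom2 and Mybpc2, which encode sarcomere proteins of muscle, rose by 2.65 ± 0.37 and 2.02 ± 0.29. Il33, a nuclear cytokine, rose by 2.36 ± 0.31 from signals at or below the CLP array medians (1.5 to 40.4 (median 22.4)) to 84.3 to 513 (median 258). The scavenger receptor Cd36 rose by 2.06 ± 0.34, the ubiquitin ligase Syvn1 by 2.17 ± 0.29, the signalling adaptor Eps8 by 1.87 ± 0.22 and the membrane protein Tmem132e by 2.14 ± 0.43. The other Syvn1 probe set differed by 0.57 and was not called. Medians of Myom2 were 28.5 in fraction A, 1012 in C, 307 in D and 21.6 in F, and those of Il33 4, 277, 120.3 and 31.4, so both were highest in B and C among the 7 populations. The calls of Fcmr and Tmem132e were lost with the Gapdh ratio as a covariate.

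Among the 12 largest falls without overlap of arrays were genes best known from T cells, myeloid cells and progenitors. Icos, a costimulatory receptor of T cells and innate lymphoid cells, was at 1003 to 3938 (median 1543) in the CLP and 11.4 to 95.4 (median 43) in B, a difference of -4.54 ± 0.33, limma adjusted p = 4.61e-08. The pore-forming protein Mpeg1 of phagocytes and dendritic cells was at 3798 to 6115 (median 4849.6) and 51.9 to 378 (median 217) (-4.49 ± 0.32, limma adjusted p = 3.37e-08). Slc35d3, a sugar transporter family member, was at 637 to 2087 (median 870.2) and 2.9 to 30.3 (median 19) (-4.48 ± 0.26, limma adjusted p = 8.46e-09). For these 3 genes the lowest CLP array was several times the highest B array. S100a4, a calcium-binding protein of motile cells, fell (-4.25 ± 0.38), the lipid receptor S1pr3 (-3.98 ± 0.26), the chitinase-like Chil3 of myeloid cells (-3.84 ± 0.47), the interferon-inducible GTPase Gbp8 (-3.78 ± 0.27) and the cytokine receptor chain Il17rb (-3.70 ± 0.32). The light chain gene segment Igkv9-120, at 252 to 12219 (median 1667) in the CLP, and the protease inhibitor Slpi, at 291 to 5734 (median 757), fell (-3.80 ± 0.65 and -3.75 ± 0.59) and varied widely between CLP arrays.

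Transcription factors of the B lineage had more rises than falls in the main fit. Of 29 tested, 10 rose (34.5%) and 4 fell (13.8%), against 13.5% and 23.5% of all genes, with a median difference of 0.14. This balance moved with the processing: 20 rose and 3 fell with median centring, 8 rose and 8 fell with the mean of probe sets, and the median was -0.01 with quantile normalization. Ebf1 was at 2464 to 4860.3 (median 3691) in the CLP and 4756 to 6826 (median 6149.5) in B, a difference of 0.68 ± 0.15, limma adjusted p = 0.00168. The ranges of the groups overlapped only at their edges. Of its 5 probe sets 3 were called higher, and the other two differed by 0.39 and 0.13 and were not called. Pax5 was at 694 to 2096 (median 1220.3) in the CLP and 892 to 1473 (median 1147) in B, a difference of -0.01 ± 0.21, limma adjusted p = 0.972, which missed the threshold. Another Pax5 probe set had means of 383.3 and 971.7 and was called higher in B (1.22, limma adjusted p = 0.0073 over all probe sets tested), so the probe sets of Pax5 disagree.

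Bach2, a repressor that acts at the pre-B cell receptor checkpoint, was at 1840.2 to 3051 (median 2463) in the CLP and 4068 to 12273 (median 5995) in B (1.43 ± 0.21, limma adjusted p = 5.01e-05). Myb, which is needed for survival of pro-B cells, rose by 0.85 ± 0.11, and the coactivator Pou2af1 by 1.17 ± 0.18, both without overlap of arrays. Rises were also called for Ets1 at 0.84 ± 0.16, Foxo1 at 0.76 ± 0.22, Ikzf3 (Aiolos) at 1.15 ± 0.32, Spib at 0.85 ± 0.28 and Lef1 at 0.70 ± 0.22. The members that fell were Irf8, at 3324 to 4512 (median 3704) in the CLP and 714 to 1963 (median 1244) in B (-1.64 ± 0.17, limma adjusted p = 1.74e-06), the repressor Gfi1 at -1.22 ± 0.12, Mef2c at -0.71 ± 0.20 and Pou2f2 (Oct2) at -1.14 ± 0.29. For Tcf3, which encodes E2A, the difference of -0.33 ± 0.26 missed the threshold, as did those of Ikzf1 (-0.01 ± 0.09), Runx1 (0.22 ± 0.10) and Spi1 (0.35 ± 0.22). Tcf3 was called lower with array weights (-0.6). Runx1 was called higher with median centring (0.64), with array weights (0.28), without B replicate 4 (0.26) and without B arrays 1 and 4 (0.3). Other probe sets of Ikzf1 (-0.63, limma adjusted p = 0.00312) and Runx1 (-0.87) were called lower in B. Ikzf1 was called lower with quantile normalization (-0.3) and the mean of its probe sets (-0.32), and higher with median centring (0.42). Spi1 was called higher with quantile normalization (0.74) and median centring (0.78). The calls of Ets1, Foxo1, Ikzf3, Spib, Lef1 and Mef2c were lost with the Gapdh ratio as a covariate, those of Foxo1, Lef1 and Pou2f2 with quantile normalization, that of Mef2c with median centring, those of Ets1, Ikzf3 and Lef1 with the mean of their probe sets, those of Spib and Lef1 without B arrays 1 and 4, and that of Pou2af1 in a fit of all 41 arrays.

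Most tested targets that Ebf1 or Pax5 are known to activate were called higher in B. Of 24 tested, 17 rose and 1 fell, with a median of 0.75, against 13.5% and 23.5% of all genes and a median of -0.18. Cd79b, a signalling chain of the B cell receptor, was at 1526 to 3411 (median 2807) in the CLP and 6324 to 11917 (median 6819.6) in B (1.56 ± 0.20, limma adjusted p = 1.25e-05). Its partner Cd79a was at 2322 to 4985 (median 3312) and 3447 to 9967 (median 3796), a difference of 0.42 ± 0.24, limma adjusted p = 0.184 that missed the threshold. Cd79a was called higher with median centring (0.84). The inhibitory lectin Cd22 was at 57.8 to 224 (median 89.8) in the CLP and 188 to 3069 (median 1153) in B (2.90 ± 0.44, limma adjusted p = 6.57e-05), and the complement regulator Cd55 rose by 1.69 ± 0.42. The member that fell was Irf8. The calls of Cd22 and Cd55 were lost with the Gapdh ratio as a covariate, under which 8 members rose.

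The pre-B cell receptor pairs the heavy chain with the surrogate light chains Vpreb1 and Igll1 (lambda5). Of 10 tested members 6 rose and 0 fell, with a median of 0.60. Vpreb1 was at 12031 to 14193 (median 12645) in the CLP and 21576 to 44294 (median 23266) in B, without overlap (1.10 ± 0.14, limma adjusted p = 1.49e-05). Igll1 was at 6923 to 9873 (median 8664) and 9280.3 to 14095 (median 11945), with overlap (0.51 ± 0.11, limma adjusted p = 0.00201). The kinases Syk, Btk and Blk, which carry the receptor's signal, rose by 1.33 ± 0.29, 0.75 ± 0.17 and 0.61 ± 0.20. The adaptor Blnk, at 2534 to 4719.6 (median 3982) in the CLP and 2284 to 4727 (median 4377) in B, had a difference of -0.01 ± 0.19 that missed the threshold, as did Vpreb3 (0.59 ± 0.28). Vpreb3 passed it without CLP replicate 7 (0.77), without B replicate 5 (0.73) and with median centring (1.01). Igll1 had no rise with quantile normalization or the mean of its probe sets. The calls of Vpreb1, Igll1 and Blk were lost in a fit of all 41 arrays, those of Syk, Btk and Blk with the Gapdh ratio as a covariate, and that of Blk without B arrays 1 and 4.

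The heavy chain gene Ighm gave no settled direction. Its representative probe set was at 2819 to 13089 (median 7192) in the CLP and 3843 to 16660 (median 9142) in B (0.37 ± 0.37, limma adjusted p = 0.454). A probe set of high signal in the CLP had a mean of 8225 there and 14.7 in B, another had 5218 and 15.94, and the mean over all its probe sets differed by -3.15. The plasma cell genes Jchain and Igha were also higher on the CLP arrays, and their part in the Ighm signals was not tested.

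**Figure D3:**
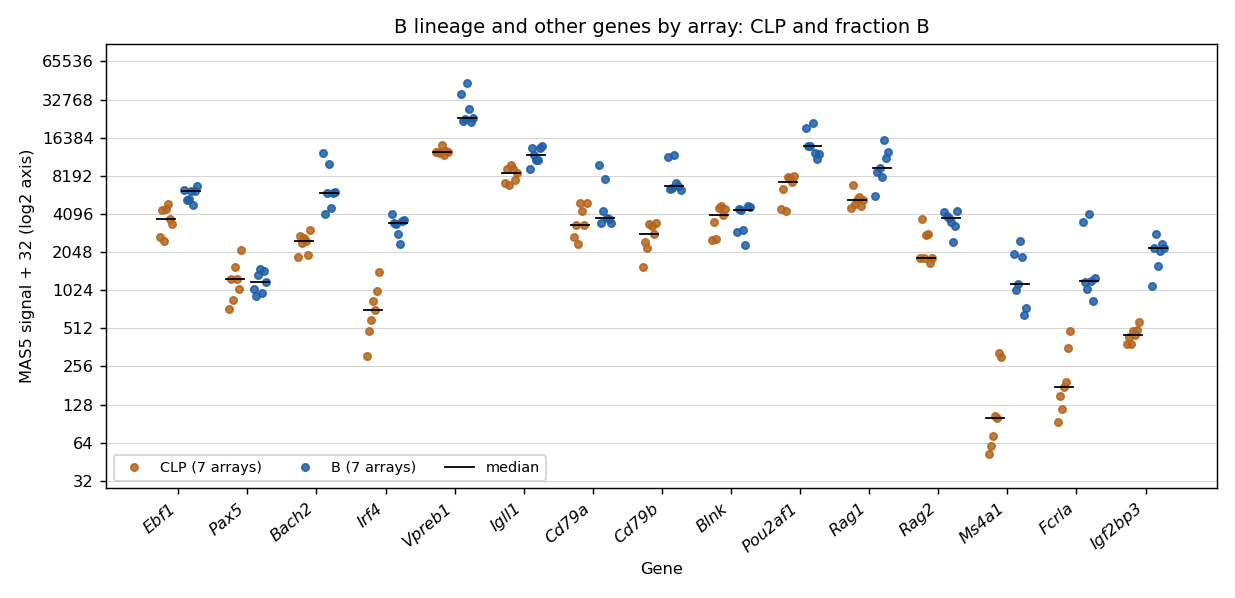
MAS5 signal + 32 (log2 axis) of 15 genes on each of the 7 CLP arrays and 7 B arrays, where a point is an array and a bar the group's median. Vpreb1, Cd79b, Bach2, Irf4, Pou2af1, Ms4a1, Fcrla and Igf2bp3 are higher on every B array than on any CLP array, whereas the ranges of Ebf1, Pax5, Igll1, Cd79a, Blnk, Rag1 and Rag2 overlap.

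Genes of V(D)J recombination, which joins the gene segments of antigen receptors, were higher in B for the recombinase itself. Of 15 tested, 8 rose and 2 fell, with a median of 0.37. Rag1 was at 4491 to 6837 (median 5210.4) in the CLP and 5648 to 15716 (median 9387) in B (0.89 ± 0.17, limma adjusted p = 0.00069). Rag2 was at 1641 to 3674 (median 1803) and 2429 to 4272 (median 3746) (0.67 ± 0.18, limma adjusted p = 0.00794). The cohesin subunit Rad21 rose by 0.98 ± 0.15 without overlap, and the chromatin protein Hmgb2, a Rag cofactor, by 0.72 ± 0.12. The other probe sets of Rad21 differed by 0.32 and 0.29 and were not called. The end-joining ligase Lig4 rose by 0.82 ± 0.24 and the loop-anchoring factor Ctcf by 0.49 ± 0.13, while the damage kinase Atm fell (-0.64 ± 0.17).

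The bases that Dntt adds mark heavy chain joints of adult pro-B cells, and its own probe sets disagreed. The representative probe set was at 11081 to 18562 (median 16337) in the CLP and 17266 to 23939 (median 19739) in B (0.37 ± 0.11, limma adjusted p = 0.014), while another was called lower in B (-0.69, limma adjusted p = 0.0242). The recombination list was at 4 rises, 2 falls and a median of 0.02 with quantile normalization, and its median was -0.06 with the mean of probe sets, where 5 rose and 2 fell. With quantile normalization the calls of Hmgb2 and Ctcf were lost and Dntt was lower in B. The calls of Rag2 and Dntt were lost in a fit of all 41 arrays, those of Rag2, Lig4, Ctcf and Atm with the Gapdh ratio as a covariate, that of Atm with median centring and that of Ctcf with the mean of its probe sets.

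The wider list of B cell receptor signalling, which shares Syk and other members with the lists above, had more rises than falls. Of 32 tested, 9 rose (28.1%) and 5 fell (15.6%), with a median of 0.16, against 13.5% and 23.5% of all genes. With the Gapdh ratio as a covariate 2 rose and 3 fell. Among the rises were Cd22, Cd79b, Syk and Fcgr2b, the inhibitory IgG receptor, at 1.32 ± 0.36. The adaptor Lat2 was at 342 to 629 (median 522) in the CLP and 50.9 to 147 (median 69.8) in B (-2.21 ± 0.23, limma adjusted p = 1.83e-06), and the calcium-regulated factor Nfatc2 fell (-1.94 ± 0.33). The adaptor Dapp1, which binds lipids made by PI3K, fell from 767 to 1428 (median 999.6) in the CLP to 281 to 587 (median 544) in B. The calls of Fcgr2b and Dapp1 were lost with the Gapdh ratio as a covariate.

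Transcription factors of progenitors and other lineages were mostly lower in B: 17 of 31 tested fell and 1 rose, with a median of -1.02. Below the filter were 7 of 38 members on the array, and the filter favours falls of genes absent from B. Gata3, a factor of T cells and innate lymphoid cells, was at 202 to 553 (median 333) in the CLP and 1.4 to 9.9 (median 1.9) in B (-3.34 ± 0.23, limma adjusted p = 3.37e-08). The B signals lay at or under 9.9. Hoxa9, which is active in early progenitors, was at 3062 to 5401 (median 3785) in the CLP and 185 to 2200.4 (median 1358) in B (-1.88 ± 0.36, limma adjusted p = 0.000603). Rora, needed by innate lymphoid cells, fell (-2.67 ± 0.43) and Mycl, a Myc family member (-2.49 ± 0.26). The member that rose was Id3, an inhibitor of E proteins such as E2A, at 247 to 729 (median 607) in the CLP and 583 to 1467 (median 1111) in B (0.90 ± 0.24, limma adjusted p = 0.00663). The calls of Hoxa9 and Id3 were lost with the Gapdh ratio as a covariate.

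Genes that Ebf1 or Pax5 are known to repress fell in 16 of 22 tested cases and rose in 1, Id3, with a median of -1.83. Below the filter was 1 of 23 members on the array. The largest falls were those of Jchain, Gata3, Cd28 and the chemokine receptor Ccr2, which was at 104 to 2204 (median 1389) in the CLP and 7.1 to 360.2 (median 129) in B (-3.18 ± 0.57, limma adjusted p = 0.000306). Csf1r, the receptor that drives macrophage development, was at 684 to 2407 (median 1415) and 1.8 to 499 (median 333) (-2.84 ± 0.58, limma adjusted p = 0.000986). Notch1, which directs progenitors to the T lineage, was at 1881 to 2617 (median 2168) and 352 to 1690.4 (median 983) (-1.24 ± 0.23, limma adjusted p = 0.000432). With the Gapdh ratio as a covariate 5 members fell and the median was -0.79, and Ccr2, Csf1r and Notch1 lost their calls. Several members are also markers of the myeloid, T and plasma cell lists that were higher on the CLP arrays.

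Surface genes of early progenitors fell in 13 of 21 tested cases and rose in 2, with a median of -1.55. Below the filter were 7 of 28 members on the array. Cd34, a sialomucin of progenitors, was at 1071 to 1979 (median 1346) in the CLP and 11.7 to 167 (median 53.8) in B (-3.97 ± 0.27, limma adjusted p = 3.37e-08). Flt3, the receptor tyrosine kinase that sustains lymphoid progenitors, was at 1904 to 2941 (median 2099.9) and 11.7 to 1002 (median 463) (-2.64 ± 0.47, limma adjusted p = 0.000305). Kit, the receptor for stem cell factor, was at 527 to 1113 (median 823) and 5.4 to 957 (median 301) (-1.59 ± 0.53, limma adjusted p = 0.0264), with overlap. Cd27, a TNF receptor family member, was at 1567 to 3283 (median 2439) and 106 to 513 (median 201) (-3.21 ± 0.26, limma adjusted p = 1.56e-07). Thy1 (CD90) fell (-3.63 ± 0.28) and the gut-homing chemokine receptor Ccr9 (-3.82 ± 0.32), both without overlap. Cd48, an adhesion receptor of lymphocytes, rose by 0.61 ± 0.13. The calls of Flt3 and Kit were lost with the Gapdh ratio as a covariate, where Kit differed by 0.03, and that of Kit also with quantile normalization, median centring, the mean of its probe sets, a pseudocount of 1, without CLP replicate 6 (-1.50) and without B replicate 4 (-1.33).

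Among 13 tested surface genes that are generally used to sort B cell precursors, 1 rose (7.69%) and 6 fell (46.2%), against 13.5% and 23.5% of all genes. With median centring 5 rose and 4 fell. The labels do not say which of these genes, if any, sorted these samples. The difference of a gene in the gates would be set in part by the sort. The rise was that of Cd24a, the heat-stable antigen, at 12827 to 15328 (median 13500) in the CLP and 24879 to 57046 (median 33200) in B (1.36 ± 0.16, limma adjusted p = 6.77e-06). Its signal was lower again in fraction C, at 16606.5 to 21318.3. Ly6d, which separates B-biased from other CLP cells, was at 1209 to 1859.9 (median 1465) and 311 to 891 (median 481) (-1.47 ± 0.21, limma adjusted p = 4.01e-05). Bst2, a tetherin also induced by interferon, was at 639 to 876 (median 815) and 188 to 350.2 (median 229) (-1.57 ± 0.17, limma adjusted p = 2.96e-06). Il2ra, the interleukin 2 receptor alpha chain, fell (-1.39 ± 0.42). Il7r was at 6715 to 10658 (median 8238) in the CLP and 7284 to 9854 (median 7677) in B, a difference of -0.03 ± 0.11 that missed the threshold, as did those of Ptprc (CD45, -0.06 ± 0.14), Spn (CD43, 0.10 ± 0.08), Cd93 (-0.03 ± 0.08) and Cd2 (0.17 ± 0.34). The differences of Il7r, Ptprc, Spn and Cd93 changed sign with the scaling, and the call of Il2ra was lost with quantile normalization and with median centring.

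**Figure D4:**
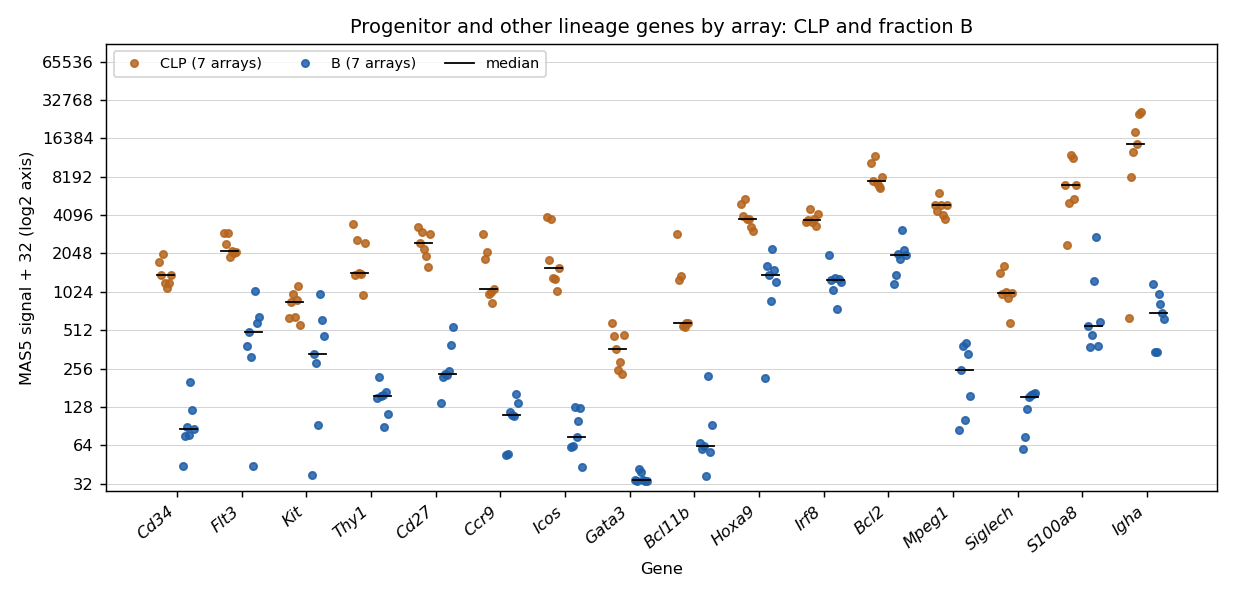
MAS5 signal + 32 (log2 axis) of 16 genes of progenitors and other lineages on each of the 7 CLP and 7 B arrays, where a point is an array and a bar the group's median. Cd34, Flt3, Thy1, Cd27, Ccr9, Icos, Gata3, Bcl11b, Hoxa9, Irf8, Bcl2, Mpeg1 and Siglech are lower on every B array than on any CLP array, while Kit, S100a8 and Igha overlap.

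Genes induced by interferon fell nearly throughout their list. Of 22 tested, 21 fell and 0 rose, with a median of -1.04, against 23.5% of all genes called lower. Below the filter were 5 of 27 members on the array. Ifitm3, a membrane protein that blocks virus entry, was at 2901 to 4711 (median 3726) in the CLP and 164 to 1151 (median 797) in B (-2.50 ± 0.30, limma adjusted p = 9.47e-06). Oas3, a sensor of double-stranded RNA, was at 236 to 468 (median 302) and 4.1 to 104 (median 27.4) (-2.40 ± 0.29, limma adjusted p = 8.95e-06). The antiviral enzyme Rsad2 (viperin) was at 239 to 765 (median 442) and 8.4 to 734 (median 49.6) (-2.23 ± 0.49, limma adjusted p = 0.00172), and its groups overlapped through a high B array. Gbp2, a guanylate-binding protein, was at 407 to 675 (median 509) and 2.4 to 241 (median 174) (-1.76 ± 0.36, limma adjusted p = 0.001). The list had 18 falls with quantile normalization, 13 with median centring and 11 with the Gapdh ratio as a covariate, where Rsad2 and Gbp2 lost their calls, and 0 rises under each of these.

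The promoters of these genes were searched for the sequence that interferon-activated factors are known to bind. The interferon-stimulated response element holds repeats of GAAA, here searched as GAAANNGAAA on both strands, where N is any base and matches may overlap. In the 250 bases before the RefSeq start (GRCm38.p6), 9 of the 20 tested interferon genes with a promoter in the table held it (45.0%), against 3.05% of the 27025 promoters of the table. Of all genes called lower in B 2.93% held it, of those called higher 3.02% and of those not called 2.49%. A match is a description of the letters, not a bound site. Promoters of 4 of the genes that fell and held a match are shown 5′ to 3′ along the gene's strand, with the match in capitals.
Oas3 (chr5:120777660-120777909, minus strand): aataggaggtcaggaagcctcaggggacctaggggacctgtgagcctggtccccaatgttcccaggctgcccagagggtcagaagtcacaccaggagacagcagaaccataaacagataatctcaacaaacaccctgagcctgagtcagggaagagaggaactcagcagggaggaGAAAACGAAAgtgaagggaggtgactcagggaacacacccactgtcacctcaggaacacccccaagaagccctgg
Rsad2 (chr12:26456453-26456702, minus strand): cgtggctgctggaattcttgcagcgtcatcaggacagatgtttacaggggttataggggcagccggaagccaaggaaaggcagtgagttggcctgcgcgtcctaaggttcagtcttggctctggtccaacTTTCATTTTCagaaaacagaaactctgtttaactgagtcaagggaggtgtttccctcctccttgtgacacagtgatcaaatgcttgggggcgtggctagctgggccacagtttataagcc
Gbp2 (chr3:142620413-142620662, plus strand): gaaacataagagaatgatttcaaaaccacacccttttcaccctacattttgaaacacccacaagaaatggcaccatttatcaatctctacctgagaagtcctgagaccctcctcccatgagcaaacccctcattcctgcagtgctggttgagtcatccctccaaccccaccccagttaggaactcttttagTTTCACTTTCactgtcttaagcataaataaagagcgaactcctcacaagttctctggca
Bst2 (chr8:71537473-71537722, minus strand): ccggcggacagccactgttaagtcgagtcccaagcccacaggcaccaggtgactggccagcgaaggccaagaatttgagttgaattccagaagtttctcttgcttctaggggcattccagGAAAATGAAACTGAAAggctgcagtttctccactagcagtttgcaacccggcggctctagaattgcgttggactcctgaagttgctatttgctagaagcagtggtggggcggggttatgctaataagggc
The matches begin 75, 120, 59 and 124 bases before the starts of Oas3, Rsad2, Gbp2 and Bst2, the last of Bst2 being the second of 2 that overlap. In Rsad2 and Gbp2 the match reads on the opposite strand.

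Interleukin 7 acts through STAT5, which induces survival genes. Of 17 tested members of that pathway 0 rose and 3 fell, with a median of -0.31, which is near the median of all genes and turned to 0.11 with median centring. The 3 falls were 17.6% of the list, below the 23.5% of all genes, of which 13.5% rose. Bcl2, the survival factor that protects progenitors from cell death, was at 6604 to 11762 (median 7547) in the CLP and 1154 to 3075 (median 1961) in B (-2.13 ± 0.19, limma adjusted p = 3.39e-07). All 5 probe sets of Bcl2 were called lower. Cish, a feedback inhibitor induced by STAT5, was at 179.8 to 830.4 (median 229) and 37.1 to 149 (median 102) (-1.49 ± 0.34, limma adjusted p = 0.00206). Among 17 tested genes of the BCL2 family and cell death, 4 fell and 0 rose (2 and 3 with median centring), including the apoptosis initiator Casp8, at -0.83 ± 0.13. The 4 falls were 23.5% of the list, the same share as among all genes. Medians of Bcl2 were 1789 in fraction C and 346 in D, but 2982 in E and 7395 in F.

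Genes of the PI3K and Foxo pathway, which lies downstream of cytokine and pre-B cell receptors, rose in 3 of 22 tested cases and fell in 7, with a median of -0.17. These were 13.6% and 31.8% of the list, against 13.5% and 23.5% of all genes. With median centring 8 rose and 1 fell, and the median was 0.25. Sgk1, a kinase of that pathway, was at 512 to 1286 (median 917) in the CLP and 2066 to 3554 (median 2992) in B (1.63 ± 0.21, limma adjusted p = 1.34e-05). Foxo3, a transcription factor that the pathway inhibits, fell (-0.81 ± 0.14), and the catalytic subunit Pik3cg (-0.66 ± 0.14). The calls of Foxo3 and Pik3cg were lost with median centring.

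Genes of cell division were described in 3 lists. Of 33 tested genes of G2 and mitosis 15 rose and 0 fell, with a median of 0.47. Kif23, a motor of the dividing cell's midzone, was at 1362 to 2708 (median 1821) in the CLP and 3668 to 8422 (median 4418) in B (1.44 ± 0.20, limma adjusted p = 3.34e-05). Cenpe, a kinetochore motor, was at 1465 to 3277 (median 2089.8) and 3575 to 6106 (median 5073) (1.22 ± 0.18, limma adjusted p = 4.06e-05). The other Cenpe probe set differed by 0.31 and was not called. Cdc20 and Ube2c, which activate and serve the anaphase-promoting complex, rose by 1.15 ± 0.26 and 1.15 ± 0.22. The list had 12 rises with quantile normalization and 24 with median centring, and 6 rises and 1 fall with the Gapdh ratio as a covariate, where Cdc20 and Ube2c lost their calls.

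Counts for genes of DNA replication turned with the scaling. Of 36 tested, 16 rose and 4 fell, with a median of 0.36, but with quantile normalization 4 rose and 6 fell, with a median of 0.04. Rrm2, the ribonucleotide reductase subunit of S phase, was at 8161 to 11466 (median 10021) in the CLP and 14524 to 24474 (median 15828) in B (0.82 ± 0.13, limma adjusted p = 8.67e-05). The replicative helicase subunit Mcm2 rose by 0.81 ± 0.17. Tk1, the thymidine kinase of dividing cells, fell (-1.17 ± 0.21), a call that held under every alternative. Of 21 tested G1 cyclins and cell cycle inhibitors 4 rose and 3 fell, or 2 and 4 with the mean of probe sets. In the main fit these were 19% and 14.3% of the list, against 13.5% and 23.5% of all genes. Btg1, an antiproliferative factor, rose by 0.79 ± 0.15. The call of Rrm2 was lost with quantile normalization, and that of Mcm2 with the mean of its probe sets and with the Gapdh ratio as a covariate.

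Genes of ribosome assembly rose in 13 of 30 tested cases and fell in 1, with a median of 0.41. Dkc1, the pseudouridine synthase dyskerin, was at 3589.7 to 5346 (median 3983) in the CLP and 6459.9 to 18621 (median 9082) in B (1.20 ± 0.17, limma adjusted p = 4.43e-05). The nucleolar proteins Npm1 and Ncl rose by 1.13 ± 0.15 and 0.97 ± 0.12, and Mybbp1a by 0.89 ± 0.12, without overlap of arrays. Another probe set of Ncl was called lower in B (-0.95, limma adjusted p = 0.00193). A further probe set of Mybbp1a (-0.34) and one of Dkc1 (-0.12) were not called, while another of Dkc1 was called higher (0.64). The list had 15 rises with quantile normalization, 22 with median centring and 11 with the Gapdh ratio as a covariate.

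Genes of oxidative phosphorylation rose in 16 of 30 tested cases and fell in 1, but in 4 with 5 falls under quantile normalization. Cox5a, a subunit of cytochrome oxidase, was at 6271 to 8454 (median 7518) in the CLP and 12359 to 20763 (median 14490) in B (1.02 ± 0.12, limma adjusted p = 6.48e-06), and Uqcrc2, of the preceding complex, rose by 0.99 ± 0.15. Another Uqcrc2 probe set differed by -0.32 and was not called. Of 16 tested glycolysis genes 4 rose and 3 fell, or 8 and 0 with median centring. In the main fit these were 25% and 18.8% of the list, against 13.5% and 23.5% of all genes. The lactate transporter Slc16a1 was at 2042 to 4088 (median 3220.0) in the CLP and 6593 to 8959 (median 7660.3) in B (1.36 ± 0.14, limma adjusted p = 1.63e-06), and lactate dehydrogenase Ldha rose by 0.77 ± 0.08, a call lost with quantile normalization.

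Chaperone genes rose in 10 of 16 tested cases and fell in 2, with a median of 0.52. Hspa8, the constitutive HSC70, was at 13025 to 15769 (median 14630) in the CLP and 25216 to 48799 (median 28212) in B (1.13 ± 0.14, limma adjusted p = 9.47e-06). The cytosolic Hsp90aa1 rose by 0.89 ± 0.11. With quantile normalization 5 members rose, 4 fell and the median was 0.03. Of 21 tested immediate early genes, which respond to handling as well as to signals, 3 rose and 1 fell: Jund rose by 1.53 ± 0.29 and Jun by 1.29 ± 0.35, and the AP-1 member Fosl2 fell (-1.37 ± 0.26). The rises were 14.3% of the list, near the 13.5% of all genes, and the fall 4.76% against 23.5%. The list median of 0.75 was 0.43 without B arrays 1 and 4, where Jun lost its call, as it did with quantile normalization and with array weights, and the call of Jund was lost with the Gapdh ratio as a covariate.

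Cholesterol synthesis genes fell in 7 of 18 tested cases and rose in 1, with a median of -0.32. With median centring 1 fell, 2 rose and the median was 0.10. Srebf2, the transcription factor that controls the pathway, was at 822 to 1443 (median 955) in the CLP and 192 to 582 (median 465) in B (-1.25 ± 0.22, limma adjusted p = 0.000325), and its call held under every alternative.

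Genes of homing and adhesion were mostly lower in B: 14 of 23 tested fell and 1 rose, with a median of -0.75. Below the filter were 5 of 28 members on the array. Itgb7, the integrin chain of gut homing, was at 1010.3 to 3426 (median 1326) in the CLP and 150.4 to 441 (median 195) in B (-2.61 ± 0.29, limma adjusted p = 3.79e-06). With Ccr9, S1pr3 and Ccr2 it made up the 4 largest falls of the list. The member that rose was Cxcr4, the receptor for the stromal chemokine Cxcl12, at 8129 to 10909 (median 9760.3) in the CLP and 10721 to 31654 (median 11939) in B (0.69 ± 0.20, limma adjusted p = 0.0123). The call of Cxcr4 was lost with quantile normalization and with the Gapdh ratio as a covariate.

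Of 18 tested genes of Notch signalling 8 fell and 1 rose, with a median of -0.55. Below the filter were 10 of 28 members on the array. Dtx4, a Deltex family member, was at 1113 to 2252 (median 1361) in the CLP and 188 to 425 (median 219) in B (-2.39 ± 0.20, limma adjusted p = 3.06e-07). Notch2 was at 4604 to 6874 (median 5807) and 1356 to 3281 (median 2614) (-1.30 ± 0.19, limma adjusted p = 4.74e-05). Nrarp, a feedback target of the pathway, rose by 0.56 ± 0.17, a call lost with the mean of its probe sets and with the Gapdh ratio as a covariate. MHC class II genes fell in 2 of 10 tested cases and rose in 0: H2-DMa, which loads peptides, was at 417 to 888 (median 682) and 24.8 to 393 (median 112) (-2.21 ± 0.34, limma adjusted p = 7.38e-05), and H2-Oa fell (-1.06 ± 0.22). The 2 falls were 20% of the class II list, near the 23.5% of all genes. Without B arrays 1 and 4, 5 class II genes fell.

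Genes of later B cell stages rose in 3 of 11 tested cases and fell in 1, with a median of 0.35. These were 27.3% and 9.09% of the list, against 13.5% and 23.5% of all genes. Without B arrays 1 and 4 the counts were 4 and 2 and the median -0.05, and with the Gapdh ratio as a covariate the median was -0.01. The summed signal of the list was 24425 and 23322 on those arrays and 11504 to 15840 on the other B arrays. Besides Ms4a1 and Cd22, the receptor Tnfrsf13c (BAFF-R), which transmits survival signals to mature B cells, was at 3265 to 4908 (median 3650.5) in the CLP and 6422 to 12116 (median 7117) in B (1.01 ± 0.14, limma adjusted p = 3.33e-05). The member that fell was Il2ra.

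The series was set beside hypodiploid leukaemia, whose recurrently altered genes were taken as a list. Of 19 tested, 4 rose and 6 fell, with a median of -0.19, shares of 21.1% and 31.6% against 13.5% and 23.5% of all genes. With median centring 8 rose, 5 fell and the median was 0.24, and with the Gapdh ratio as a covariate 3 rose and 1 fell. Besides Ebf1 and Ikzf3, the rises were Ezh2, the catalytic subunit of a repressive chromatin complex, at 4529.6 to 6718 (median 5525) in the CLP and 8199 to 11755 (median 10022) in B (0.81 ± 0.11, limma adjusted p = 3.42e-05), and Arid2, a chromatin remodelling subunit, at 0.60 ± 0.12. Ikzf2 (Helios), a relative of Ikaros, was at 264 to 806 (median 491) in the CLP and 1.9 to 174 (median 50.6) in B (-2.35 ± 0.36, limma adjusted p = 7.9e-05). The transcription factors Etv6 and Maf fell (-1.19 ± 0.19 and -1.70 ± 0.43), and both calls were lost with the Gapdh ratio as a covariate. Ikzf1 and Pax5 were not called in the main fit, although another probe set of Ikzf1 was called lower and another of Pax5 higher.

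Medians in the other populations, which this comparison does not test, place a few of these genes along the path. Medians of Ebf1 were 3691 in the CLP, 126 in fraction A, 6150.0 in B, 4771 in C and 7612 in D, so fraction A was the lowest and the CLP arrays lay between A and B. Those of Igll1 were 8664, 176, 11940, 12030 and 3337, and those of Pou2af1 7259, 182, 13950, 9205 and 15460, in the same order of populations. Medians of Cd34 were 1346 in the CLP, 594 in A, 53.8 in B and 30 in C. For these 4 genes the CLP median was above that of fraction A, although Pou2af1 on 1 array of fraction A, at 10001.6, exceeded every CLP array.

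**Figure D5:**
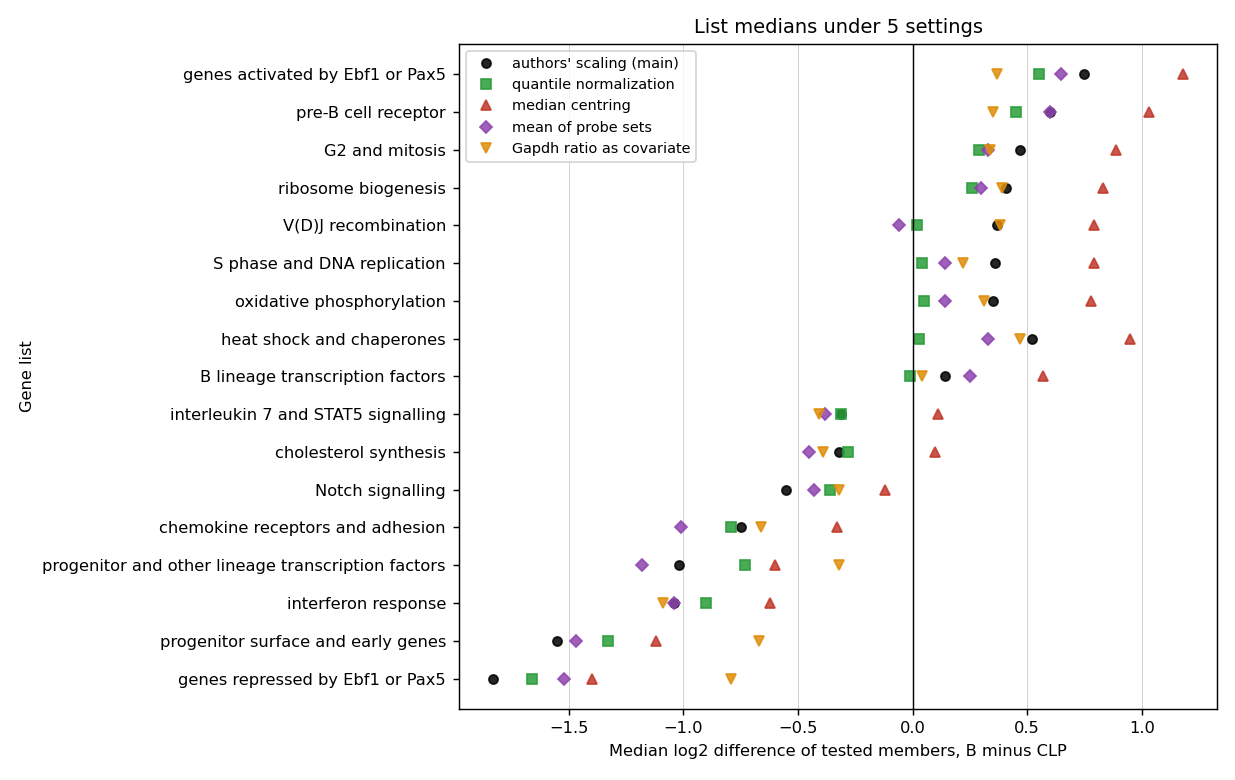
Median log2 difference, B minus CLP, of the tested members of 17 gene lists under the authors' scaling and 4 alternatives. The interferon list stays between -1.09 and -0.62 and the targets activated by Ebf1 or Pax5 between 0.37 and 1.18, while S phase genes go from 0.36 to 0.04 with quantile normalization and interleukin 7 genes from -0.31 to 0.11 with median centring.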

How the data were processed

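Each of the 41 single-colour Affymetrix arrays held 1 sample of RNA, which per the labels was extracted with Arcturus PicoPure kits and then amplified with NuGEN's Ovation Pico chemistry. The deposited values are intensities that the submitters' processing notes call MAS5. Trimmed by 2% at either end, every array's mean was 500, which shows the authors' scaling. No source used here names a genome build. Of 45101 probe sets the annotation table pairs 34958 with 1 gene, 932 with several and 9160 with none, besides 64 controls. For each of 18194 genes the probe set of highest mean over the 41 arrays was used. Genes at or above the array median on at least 7 of the 14 arrays were tested (9932), and 8262 were not.

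Signals were taken as log2(value + 32) with no further normalization. B was compared with the CLP with limma 3.58.1 in R 4.3.3 (lmFit, eBayes with trend and robust, statmod 1.5.0) on the 14 arrays alone, because fraction A, which a fit of all arrays would include, varied far more. The groups and replicate numbers came from the sample titles. Same-numbered B and CLP arrays did not deviate together (correlations -0.118 to 0.0553), so no block was used. The method was tested on simulated data. Alternatives were 2 other pseudocounts, 3 other filters, median centring, quantile normalization, averaged probe sets, each probe set on its own, the replicate block, all 41 arrays, eBayes without trend and robust, array weights, the Gapdh ratio as a covariate, and arrays left out.

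The comparison, the alternatives and the 39 gene lists were chosen with earlier results of these data known, the lists from general knowledge of the genes, so no list has a test of its own. Genes named are the 12 largest changes in each direction among called genes with no overlap of arrays and a mean of at least 200. Further names are tested members of the lists for sorting, V(D)J recombination, B lineage transcription factors and the pre-B cell receptor. In the other lists, names were taken from the called members with the largest differences, up to 4 per direction. Not every member that these rules admit is named, and uncalled members are given as values. Promoters came from RefSeq (GRCm38.p6), 1 per gene, and 8120 of the 9932 tested genes matched by symbol.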

Additional observations from a re-analysis of the deposited data

Results flagged for a closer look

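In a group of 7 arrays, an array was singled out where its gap to the nearest other exceeded the 95% critical value of Dixon's test as a share of the group's range on the log2 scale, which chance gives in about 1 group in 20. Of 390 groups examined, over 156 genes and 39 lists, 20 (5.13%) met this, near that share.

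Among them, 5 genes stood out on B array 4: Flt3 was lowest there at 11.7 (nearest 284), Gbp2 at 2.4 (nearest 110), Dapp1 at 281 (nearest 494) and Nfatc2 at 5 (nearest 42), while Dkc1 was highest at 18600 (nearest 9800). On B array 1 Hoxa9 was lowest at 185 (nearest 830) and Alas2 at 1.7 (nearest 38.6), and on B array 7 Hsp90aa1 at 10900 (nearest 13000). On B array 5 Rora was highest at 419 (nearest 83) and Cd4 at 190 (nearest 32.2). The same array was lowest for the mean log2 level of B cell receptor signalling genes, 9.91 (nearest 10.28), and of S phase genes, 11.41 (nearest 11.57).

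On the CLP side, Igha was lowest on array 1 at 607 (nearest 8100), as was Syk at 926 (nearest 1390), and Cd8b1 was highest there at 129 (nearest 44.8). Ldha was lowest on array 2 at 8050 (nearest 9140), Vpreb1 highest on array 4 at 14200 (nearest 12900) and Ccr2 lowest on array 7 at 104 (nearest 1190). The erythroid list had its highest mean log2 level on CLP array 6, 10.30 (nearest 9.03), and the list of later B cell stages on CLP array 7, 8.64 (nearest 8.22).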

How the results depend on the processing

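Of 3678 genes called, 1342 were higher and 2336 lower in B. Leaving out each array in turn gave 3206 to 3861 calls, 1190 to 1452 higher and 2016 to 2409 lower. With a 75th percentile filter 2395 genes were called and 1129 were lower, of 6090 tested. Median centring called 3060 higher and 930 lower, and the mean of probe sets called 826 higher. The Gapdh ratio as a covariate left 1835 calls, 681 higher and 1154 lower, and 41.2% of the main calls. For these changes the cause was not tested beyond the fewer genes that the filter admits. Quantile normalization kept 59.6% of the calls and turned 20. The replicate block gave 3341 calls, 1212 higher and 2129 lower. Since the numbers do not pair the samples, this is a check only, and 0 of the 7 B arrays had their own number as best CLP partner. Of the 150 tested genes named, 88 had the same call under every alternative that tested them, single probe sets aside. Some differences changed sign in genes called in the main fit or in the alternative. With quantile normalization these were Dntt (-0.40), Igll1 (-0.01) and Spn (-0.47). With median centring they were Ikzf1 (0.42), Ptprc (0.37), Il7r (0.39) and Cd93 (0.39). With the mean of probe sets they were Dntt (-0.06), Igll1 (-0.02) and Ighm (-3.15), and with the Gapdh ratio Kit (0.03). Sign changes of genes called in neither fit are not listed. Array number and signals near background limit the rest: 8262 genes were too dim to test.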

Other observations

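Red cell genes differed too. Of 8 tested erythroid markers 3 fell (37.5%) and 1 rose (12.5%), against 23.5% and 13.5% of all genes. Slc4a1, the anion exchanger of the red cell membrane, was at 350.3 to 2674 (median 887.2) in the CLP and 56.9 to 225.2 (median 96.4) in B, and Alas2, the first enzyme of haem synthesis in these cells, at 183.9 to 546.2 (median 288.3) and 1.7 to 72.1 (median 62). Both were called lower in B (-2.75 ± 0.36 and -2.03 ± 0.28, SE). Of 3 tested stromal and endothelial markers 1 rose and 1 fell. Of the 13 tested markers of common lymphoid progenitors 10 fell and 2 rose, and of 11 tested B lineage markers 6 rose and 0 fell.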
